A study of Mus musculus with 9 samples.

Results

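The 36 genes described here encode glutamate receptor subunits and the proteins that hold them at the synapse, and they were chosen by name: 22 receptor subunits, 3 auxiliary subunits of AMPA receptors and 11 scaffold or kinase genes. They are 36 of the 33641 genes in the table. All 36 were among the 17398 genes tested, and the lowest value of any of them in any library was 169 counts. Expression was measured by poly(A)-selected RNA-seq in dissected brain tissue that held the thalamus, hypothalamus and midbrain. The tissue came from 9 untreated mice aged 7.5 months, 3 of each genotype: wild type (WT), PG9V and PG9VN. The mutant lines belong to a study of neuronopathic Gaucher disease, in which lipids build up in lysosomes. The labels name no alleles. As general knowledge of these lines, PG9V and PG9VN mice are without progranulin (Grn). The labels call the mice biological replicates, numbered here in accession order within a genotype, and give no sex, litter, strain or batch, so a difference of strain background cannot be told apart from genotype.

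Glutamate is the main excitatory transmitter of the brain. AMPA receptors (Gria genes) carry the fast current and need auxiliary subunits called TARPs (Cacng genes) to reach the synapse. NMDA receptors (Grin genes) admit calcium, kainate receptors (Grik genes) modulate transmission, and metabotropic receptors (Grm genes) signal through G proteins. Beneath the membrane, Dlg proteins bind receptors and TARPs through PDZ domains. Dlgap, Shank and Homer proteins link the Dlg layer to the cytoskeleton and to metabotropic receptors, and the kinase Camk2a acts there when calcium enters. In the thalamus, relay neurons release glutamate onto the cortex and receive it from the cortex and from ascending pathways.

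Libraries held 27150311 to 35349014 counts. Grn, a check of the labels, had 1375 to 1729 counts in the WT libraries, whereas the PG9V libraries had 78 to 148 and the PG9VN libraries 97 to 131. Of 12 thalamus markers 9 were called lower in PG9VN than in WT, and their summed level in counts scaled to library size (CPM) was 1250 to 1468 for WT, 881 to 954 for PG9V and 451 to 647 for PG9VN. Of 10 general neuron markers 2 were called lower and 0 higher by edgeR (7 and 0 with an unadjusted p under 0.05), with summed levels of 7022 to 7181, 5972 to 6438 and 4783 to 6421 CPM. PG9VN replicate 2 stood apart. Its 10 cortex and hippocampus markers summed to 1859 CPM, against 424 and 431 in the other PG9VN libraries. Its 8 hypothalamus markers summed to 5.05 CPM, against 348 and 510 in the other PG9VN libraries, 146 to 169 in WT and 164 to 223 in PG9V. Its 6 striatum markers summed to 186 CPM, against 995 and 990 in the other PG9VN libraries, 248 to 900 in WT and 357 to 708 in PG9V. In PG9V replicate 3 the 8 cerebellum markers summed to 550 CPM, against 166 to 241 in the others. No marker in these lists was at 0 in every library. Results for PG9VN are therefore given with and without replicate 2. In bulk tissue, fewer cells of a type and less RNA per cell cannot be told apart.

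Levels of different genes were compared only after division by transcript length, as TPM, the length-corrected equivalent of CPM. In WT, Camk2a was highest at 598 ± 67.3 TPM (SD, n = 3) and the PDZ scaffold Dlg4, known as PSD-95, followed at 415 ± 11 TPM. The obligatory NMDA subunit Grin1 stood at 218 ± 15.5 TPM and the AMPA subunit Gria2, which blocks calcium entry, at 200 ± 13.6 TPM. The WT libraries of Grin1 (208 to 235 TPM) and Gria2 (184 to 209 TPM) overlapped, so their order lies within the spread. Gria1 came next at 167 ± 13 TPM and the scaffold Shank1 at 151 ± 6.54 TPM. The lowest were the group III metabotropic receptor Grm8 at 7.72 ± 0.605 TPM, and the kainate subunits Grik1 at 12.2 ± 0.95 TPM and Grik4 at 13.1 ± 3.18 TPM. Among kainate subunits Grik5, which forms no working channel alone, had the highest level in WT, 95.8 ± 6.84 TPM.

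The comparison of PG9VN with WT asked whether genes of the excitatory synapse differ between that line and wild type. Of the 36 genes 6 fell in PG9VN: the AMPA subunit Gria4, the TARP Cacng2, the metabotropic receptors Grm3, Grm7 and Grm8, and the scaffold Homer2. By edgeR's quasi-likelihood test 0 rose. At an unadjusted p under 0.05, 12 were lower and 1 higher, beside 2480 and 3259 of the 17398 genes tested. DESeq2 and limma-voom called 0 of the 36 higher. The 6 are 16.7% of the 36 genes, where 7.22% of all genes tested were called lower and 11.5% higher. The median log2 fold change of the 36 genes was -0.21, against 0.02 over all genes tested, and 30 lay below 0. For 14 of them (38.9%) every PG9VN library lay below every WT library, as for 17.2% of all genes tested, and for 2 (5.56%) every one lay above, as for 20.3%. Scaling to the neuron markers in place of TMM shifted the median of all genes to 0.37 and that of the 36 genes to 0.15, still 0.22 below all genes. Under that scaling 1 of the 36 was called lower and 5 higher, where 1.06% of all genes were called lower and 37.9% higher. Those 5 were Gria1, Cacng3, Grik5, Dlg3 and Dlg4. The count of 6 also depended on single libraries, as did the count over all genes, 1256 with all libraries. Leaving out WT replicate 1 or WT replicate 3 gave 2, beside 533 and 563 of all genes. Leaving out WT replicate 2 or PG9VN replicate 3 gave 3, beside 788 and 663. Leaving out PG9V replicate 3 gave 4, beside 933, and leaving out PG9VN replicate 2 gave 15, beside 2014. These fits tested 17589 to 17639 genes. WT replicate 1 and PG9V replicate 2 had 214 and 191 Y-linked counts, and the other 7 libraries, all 3 of PG9VN among them, had 3852 to 5903. Within those 7 libraries Cacng2 and Grm8 kept their calls and the other 4 genes lost theirs, where 309 of 17571 genes were called lower. The thalamus and neuron markers given above moved with these calls. So did 6 microglia markers, 5 of which rose, with sums of 228 to 262 CPM for WT and 583 to 818 for PG9VN. Within that sum Ctss alone was at 64.1 ± 5.73 CPM in WT and 416 ± 82.4 in PG9VN. Astrocyte markers also moved, and 5 of 6 rose. The part of these markers in the calls was not tested.

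**Figure D1:**
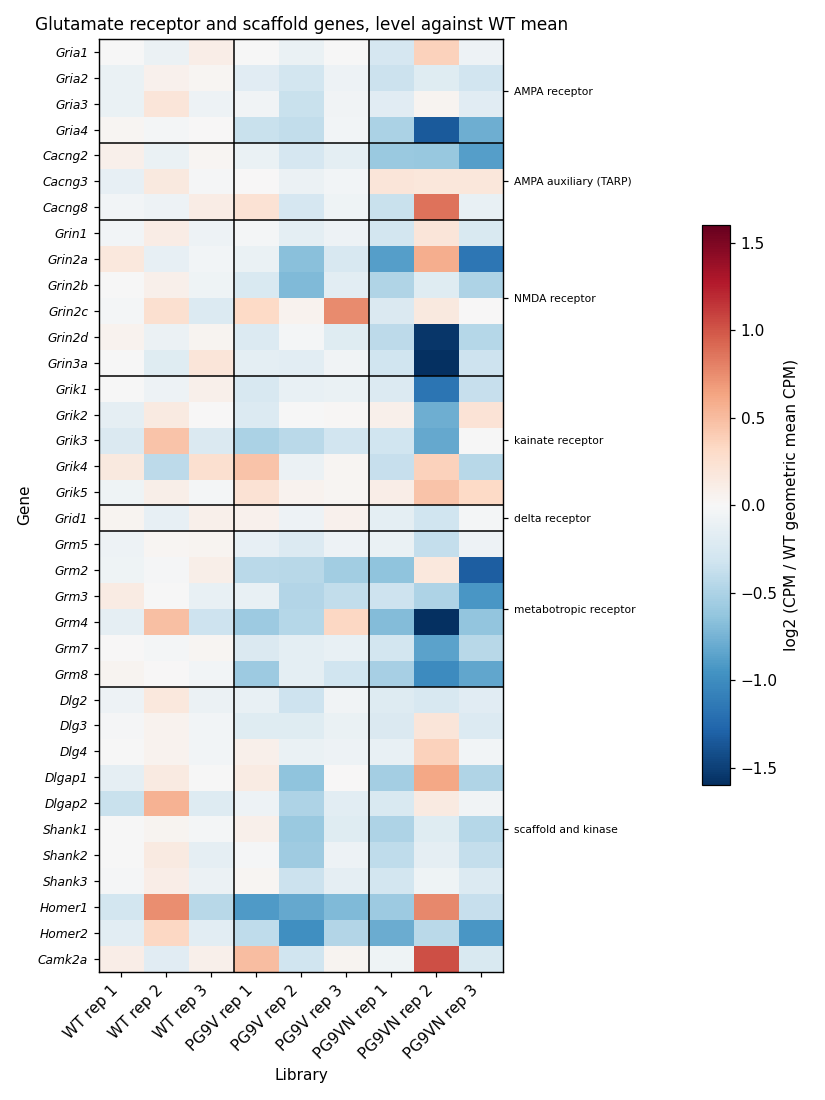
Level of each of the 36 genes in each of the 9 libraries, as log2 of CPM over the WT geometric mean; rows are genes grouped by class, columns are libraries, and colours saturate at 1.6 log2 units in either direction. PG9VN replicate 2 is the most deeply coloured column, with Grin3a and Grm4 low and Camk2a and Cacng8 high, whereas Cacng2 and Grm8 are low in all 3 PG9VN libraries.

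Cacng2, also called stargazin, traffics AMPA receptors to the synapse and slows their desensitization. It was measured at 91.5, 79.9 and 88.1 CPM in WT, 80.2, 71.9 and 77.4 in PG9V, and 57.4, 56.9 and 46.9 in PG9VN. Every PG9VN library lay below every other library, and PG9VN replicate 2 was not exceptional. The gene fell by 37.9% against WT (log2 fold change -0.69 ± 0.10 (SE, n = 3 per genotype), edgeR adjusted p = 0.00168). It passed the test under all 19 alternatives tried (adjusted p from 1.08e-08 to 0.0225), including scaling to the neuron markers, where the log2 fold change was -0.34. The other TARPs did not pass edgeR's test with TMM scaling. Cacng3 was at 39.9 ± 3.93 CPM in WT and 45.2 ± 0.215 in PG9VN, with no overlap (0.18 ± 0.08, adjusted p = 0.163). Scaled to the neuron markers, Cacng3 was called higher (0.54, edgeR adjusted p = 0.00867). Cacng8, the TARP typical of hippocampus, was at 51.3 ± 3.67 and 60.3 ± 28.8 CPM, with 93.3 CPM in PG9VN replicate 2 and 40.2 and 47.3 CPM in the other PG9VN libraries.

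Gria4 encodes the AMPA subunit with the fastest kinetics and is strongly expressed in the thalamus. It was at 136, 131 and 134 CPM in WT, 104, 102 and 130 in PG9V, and 94.5, 52.7 and 78.0 in PG9VN. No libraries of different genotypes overlapped, and PG9VN replicate 2 was lowest. The gene fell by 43.8% against WT (-0.83 ± 0.19, edgeR adjusted p = 0.0162; 0.00555 without PG9VN replicate 2, where the value was -0.63 ± 0.12). The call was lost without WT replicate 1 or WT replicate 3, and adjusted p ranged from 0.000445 to 0.168 over the 19 alternatives. Of its transcripts with the full coding sequence of 2706 bases, ENSMUST00000027020.12 fell from 44.3 ± 11.2 to 19.8 ± 6.16 CPM (-1.16 ± 0.25, edgeR over 53622 transcripts, adjusted p = 0.0453). The most abundant, ENSMUST00000063508.14, went from 39.7 ± 7.47 to 27.2 ± 6.40 CPM and did not pass (adjusted p = 0.26). A transcript with a coding sequence of 1299 bases, ENSMUST00000163309.1, fell from 20.9 ± 2.21 to 9.30 ± 2.05 CPM (-1.17 ± 0.18, adjusted p = 0.0135). ENSMUST00000212533.1, at 27.6 ± 16.8 and 18.9 ± 11.8 CPM, did not pass (adjusted p = 0.716). Reads can be shared between these transcripts, so their split is uncertain.

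The other AMPA subunits did not pass edgeR's test with all libraries, TMM scaling and no covariate. Scaled to the neuron markers, Gria1 was called higher (0.36, edgeR adjusted p = 0.0265). Gria2 was at 593 ± 36.6 CPM in WT and 488 ± 28.9 in PG9VN, with no overlap (-0.28 ± 0.10, adjusted p = 0.0744). Gria2 was called lower by DESeq2 (adjusted p = 0.0118) and by edgeR with the cortex marker covariate (adjusted p = 0.0274). Gria3 was at 159 ± 18 and 147 ± 14.1 CPM, and Gria1 at 489 ± 33.2 and 499 ± 116. The 95% interval of the log2 fold change was -0.38 to 0.16 for Gria3 and -0.31 to 0.37 for Gria1. In PG9VN replicate 2 Gria1 reached 630 CPM, against 406 and 461 CPM in the other PG9VN libraries.

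To show where transcription of the fallen genes starts, the 150 bases before the annotated start are printed below for the 3 of the 6 that have a single start in the RefSeq promoter table (GRCm38.p6), all on the minus strand and written 5′ to 3′. They lie at chr15:78119281-78119430 (Cacng2), chr9:4796235-4796384 (Gria4) and chr5:9725353-9725502 (Grm3). Capitals mark a GC box, the letters GGGCGG on either strand.
Cacng2: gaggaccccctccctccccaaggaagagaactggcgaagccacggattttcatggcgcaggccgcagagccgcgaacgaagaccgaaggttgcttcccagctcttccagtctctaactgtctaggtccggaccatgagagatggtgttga
Gria4: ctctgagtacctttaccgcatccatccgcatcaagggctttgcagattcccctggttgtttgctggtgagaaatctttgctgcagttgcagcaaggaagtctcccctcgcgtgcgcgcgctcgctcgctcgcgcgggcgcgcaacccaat
Grm3: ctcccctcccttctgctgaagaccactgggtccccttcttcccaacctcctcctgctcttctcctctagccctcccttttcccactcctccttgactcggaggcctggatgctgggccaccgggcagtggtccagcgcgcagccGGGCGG
The stretches are 58.7%, 59.3% and 66% G and C. Only that of Grm3 among them holds a GC box, at its last bases. Of the 36 genes 23 matched the promoter table, and 12 of the 23 held a GC box within 250 bases before a start, against 35.4% of all genes in the table. Counted by start, as a gene can have several, 13 of their 34 windows held one, against 32.7% of all 32851 windows. TATAAA on either strand was found for 2 of the 23, Dlg2 and Homer2, against 14.3% of all genes. The CRE sequence TGACGTCA was found for 0 of the 23, and for 1.77% of all genes, and only these letters in this window were searched.

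Metabotropic receptors held 3 of the 6 calls, and all 6 of their log2 fold changes lay below 0 (median -0.54), except that Grm5 lay above 0 when scaled to the neuron markers. Grm8, a presynaptic group III receptor that limits glutamate release, was at 12.9, 12.6 and 12.2 CPM in WT, 8.41, 11.3 and 10.1 in PG9V, and 8.66, 6.23 and 7.09 in PG9VN. All PG9VN libraries lay below all WT libraries. It fell by 41.8% (-0.78 ± 0.15, edgeR adjusted p = 0.00823), and it kept its call when any 1 of the 9 libraries was left out (adjusted p from 0.00503 to 0.0341). The call was lost when scaled to the neuron markers (-0.41, adjusted p = 0.142) and for its most abundant transcript alone (-0.33, adjusted p = 0.688). Grm7, the group III receptor placed at the active zone, was at 61.5, 60 and 62.9 CPM in WT, 52.3, 55.2 and 56.8 in PG9V, and 50.3, 34 and 45.1 in PG9VN. Its libraries lay in the order WT, PG9V, PG9VN with no overlap. It fell by 29.8% against WT (-0.51 ± 0.13, adjusted p = 0.023), a call lost without any 1 of the WT libraries or PG9VN replicate 3 (adjusted p up to 0.076).

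Grm3, a group II receptor of neurons and astrocytes, was at 48.1, 43.7 and 40.7 CPM in WT, 40.7, 31.9 and 33.4 in PG9V, and 35, 31.3 and 23.2 in PG9VN. All PG9VN libraries lay below all WT libraries. It fell by 32.4% against WT (-0.57 ± 0.16, edgeR adjusted p = 0.0342), a call lost without any 1 of the WT libraries, PG9V replicate 3 or PG9VN replicate 3 (adjusted p up to 0.116). Grm3 fell while 5 of 6 astrocyte markers rose, and the astrocyte markers summed to 2104 to 2224 CPM in WT and 5058 to 6812 in PG9VN. Within that sum Gfap alone was at 267 ± 28.9 CPM in WT and 3177 ± 884 in PG9VN. Gja1, the marker not called, was at 243 ± 9.64 and 260 ± 26.6 CPM. Grm4, a group III receptor abundant in cerebellum, was at 60.2 ± 18.7 CPM in WT and 29.8 ± 12.6 in PG9VN and did not pass by edgeR (-1.01 ± 0.39, adjusted p = 0.106; DESeq2 called it, adjusted p = 0.0269). Grm2, the other group II receptor, was at 36.4 ± 2.07 and 26.3 ± 13.5 CPM, where the PG9VN libraries held 23.2, 41 and 14.6 CPM. Grm5, a postsynaptic group I receptor bound by Homer proteins, was at 185 ± 8.84 and 162 ± 17.9 CPM (-0.18 ± 0.10, adjusted p = 0.226).

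**Figure D2:**
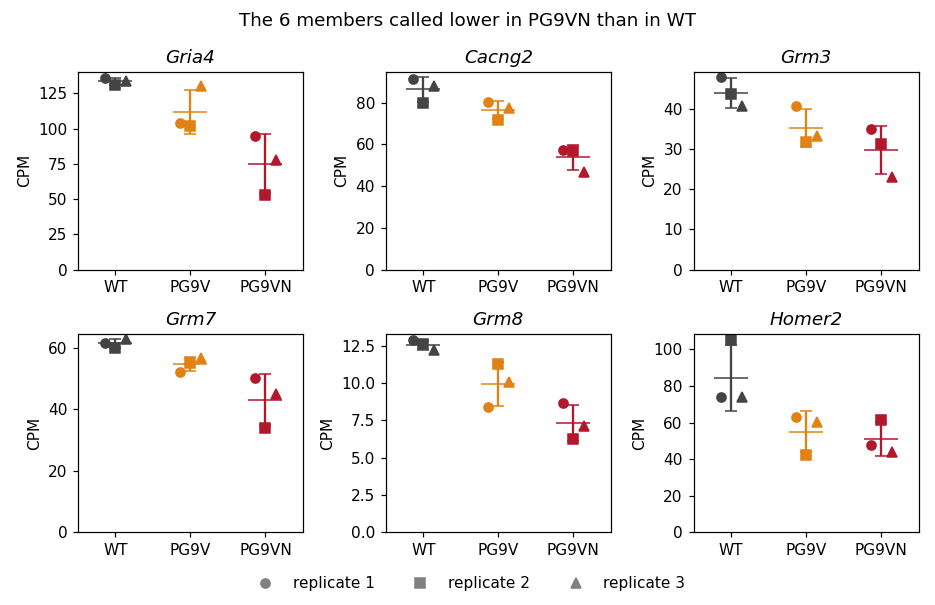
CPM of the 6 genes called lower in PG9VN than in WT, by genotype; symbols are single libraries, horizontal marks are means and bars are SD over 3 libraries. In each panel every PG9VN library lies below every WT library; Gria4 and Grm7 step down from WT through PG9V to PG9VN, whereas for Homer2 the mutant lines overlap.

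By edgeR without a covariate no NMDA receptor subunit passed the test with all libraries, although all 6 log2 fold changes lay below 0 (median -0.33; 4 of 6 below 0 when scaled to the neuron markers). Edge cases were Grin2d, a subunit of diencephalon and midbrain, and Grin2b. Grin2d was at 59.9, 54.0 and 59.6 CPM in WT and 43.2, 19.7 and 42.1 in PG9VN (-0.72 ± 0.25, edgeR adjusted p = 0.0767), and DESeq2 called it lower (adjusted p = 0.0226; 0.000568 by edgeR with the cortex marker covariate). Grin2b was at 322, 340 and 307 CPM in WT and 231, 281 and 230 in PG9VN (-0.38 ± 0.15, adjusted p = 0.104). For both genes PG9VN and WT did not overlap, and PG9VN replicate 2 was the lowest PG9VN library for Grin2d and the highest for Grin2b. Grin3a, whose product lowers calcium entry, was at 68.0 ± 9.37 and 43.1 ± 18.9 CPM, with 21.3 CPM in PG9VN replicate 2 and 54.1 and 53.9 CPM in the others.

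Grin2a, the subunit that prevails in mature cortex, gave the widest spread of the NMDA genes. It was at 157, 128 and 136 CPM in WT, 130, 87.6 and 117 in PG9V, and 75.7, 209 and 62.6 in PG9VN. PG9VN replicate 2 was the highest of all 9 libraries and the other PG9VN libraries were the lowest. With that library the log2 fold change was -0.27 ± 0.41, and without it -1.02 ± 0.17 (edgeR adjusted p = 0.00444, against 0.0122 to 0.991 under the other alternatives). Grin1 was at 464 ± 35.9 CPM in WT and 432 ± 83.8 in PG9VN. Grin2c, a subunit of cerebellar granule cells, thalamus and astrocytes, was at 60.8 ± 10.3 and 59.6 ± 7.95 CPM. Its highest value, 102 CPM, was in PG9V replicate 3, the library with high cerebellum markers.

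Kainate and delta receptor genes did not pass edgeR's test in any comparison with all libraries, TMM scaling and no covariate. Grik5 was at 170, 190 and 174 CPM in WT and 191, 244 and 221 in PG9VN, with no overlap (0.30 ± 0.11, edgeR adjusted p = 0.0892). It was the gene higher at an unadjusted p under 0.05, and it was called higher without PG9VN replicate 1, with a cortex marker covariate and when scaled to the neuron markers (adjusted p from 0.00263 to 0.305 over the alternatives). Grik1, a channel-forming subunit, was at 20.8 ± 1.25 and 14.4 ± 4.60 CPM, with no overlap (-0.53 ± 0.21, adjusted p = 0.109), and was called lower with the cortex marker covariate (-0.63 ± 0.12, edgeR adjusted p = 0.00362). Grik2, another channel-forming subunit, was at 98.2 ± 9.53 and 91.4 ± 30.4 CPM, Grik3 at 98.9 ± 28.4 and 76.1 ± 20.5 CPM, and Grik4 at 30 ± 7.03 and 27.4 ± 9.00 CPM. Grid1, a delta receptor that organizes synapses and is not gated by glutamate, was at 67.5 ± 5.18 and 60.2 ± 5.85 CPM (95% interval of the log2 fold change -0.38 to 0.05).

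Of the 11 scaffold and kinase genes 1 fell, Homer2, which links metabotropic receptors to Shank and to calcium stores. It was at 74.2, 105 and 73.9 CPM in WT, 62.8, 42.2 and 60.1 in PG9V, and 47.9, 61.5 and 43.7 in PG9VN. WT replicate 2 stood above all other libraries. The gene fell by 39.6% against WT (-0.73 ± 0.20, edgeR adjusted p = 0.0363), a call held when PG9V replicate 2 or PG9VN replicate 2 was left out and lost when any of the other 7 libraries was (adjusted p up to 0.112). Its value in PG9V against WT was nearly as large, -0.62 ± 0.20, and did not pass (adjusted p = 0.207).

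The main scaffolds did not pass edgeR's test with all libraries, TMM scaling and no covariate. Scaled to the neuron markers, Dlg4 (0.42, edgeR adjusted p = 0.00956) and Dlg3 (0.27, adjusted p = 0.0475) were called higher. Dlg4 was at 549 ± 19.9 CPM in WT and 583 ± 112 in PG9VN, and the 95% interval of its log2 fold change ran from -0.22 to 0.39. Shank1 was at 504, 524 and 495 CPM in WT and 359, 442 and 369 in PG9VN, with no overlap (-0.38 ± 0.16, edgeR adjusted p = 0.137; 0.0475 with the cortex marker covariate). Shank2 and Shank3, which bind Dlgap proteins as Shank1 does, were at 184 ± 18.5 and 288 ± 20.7 CPM in WT and 148 ± 15.6 and 252 ± 21.3 in PG9VN. Dlg2 was at 309 ± 31.6 and 265 ± 6.96 CPM, Dlg3 at 147 ± 5.12 and 140 ± 24.9, Dlgap1 at 296 ± 29.5 and 289 ± 143, and Dlgap2 at 42.6 ± 15.4 and 39.8 ± 5.41. Camk2a was at 1620, 1332 and 1593 CPM in WT, 2129, 1214 and 1554 in PG9V, and 1438, 3079 and 1270 in PG9VN, and PG9VN replicate 2 was the highest of all 9.

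Homer1 has an activity-induced short form that lacks the coiled coil, and its values followed single libraries. It was at 80.5, 165 and 72.7 CPM in WT, 52.7, 55.9 and 60.7 in PG9V, and 65.8, 168 and 76.6 in PG9VN. WT replicate 2 and PG9VN replicate 2 stood apart, well above the other 7 libraries. Its transcripts were looked at after these values had been seen. ENSMUST00000102752.9, with a coding sequence of 558 bases, was at 83.5 CPM in WT replicate 2 and 93.9 in PG9VN replicate 2, and at 11.5 to 28 CPM in the other 7 libraries. The other transcripts were also highest in WT replicate 2 and PG9VN replicate 2, by less in CPM. That with a coding sequence of 1110 bases was at 28.9 and 28.8 CPM there, and at 13.9 to 20.1 elsewhere. That of 1098 bases was at 22.4 and 25.1 CPM, and at 13.8 to 21.4 elsewhere. A transcript with a coding sequence of 579 bases was at 17.3 and 16.2 CPM, and at 5.11 to 9.5 elsewhere. Arc, an activity-induced gene of the same synapses, was at 144 and 235 CPM in those libraries and at 44.5 to 72.3 CPM in the others. No genotype comparison of Homer1 passed the test (edgeR adjusted p = 0.962, 0.359 and 0.345 for PG9VN against WT, PG9V against WT and PG9VN against PG9V).

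Leaving out PG9VN replicate 2 raised the lower count in PG9VN against WT to 15 of 36 genes (41.7%), beside 11.4% of all genes. The count called higher in that fit was 0, beside 13.4%. At an unadjusted p under 0.05 it was also 0 of the 36, beside 3434 of 17639 genes. The other PG9VN libraries lay below every WT library in summed cortex and hippocampus markers (424 and 431 CPM, against 638 to 739). They lay above every WT library in summed hypothalamus markers (348 and 510 CPM, against 146 to 169) and striatum markers (995 and 990 CPM, against 248 to 900). The part of those differences in the calls was not tested. The 6 genes already called stayed among the 15. The others were Gria2 (-0.33 ± 0.09), Grin1 (-0.28 ± 0.09), Grin2a (-1.02 ± 0.17), Grin2b (-0.49 ± 0.15), Grin2d (-0.44 ± 0.08), Grin3a (-0.34 ± 0.10), Grik1 (-0.29 ± 0.09), Grm2 (-0.95 ± 0.17) and Dlg3 (-0.23 ± 0.07). Thus 5 of 6 NMDA genes were called lower, and 33 of the 36 log2 fold changes lay below 0 (median -0.31, against 0 over all genes). The sign turned for 5 genes: Gria1, Cacng8, Dlg4 and Camk2a went from above to below 0, and Grik2 from below to above.

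With the mean level of the cortex and hippocampus markers as a covariate and all 9 libraries, 14 genes were called lower and 2 higher. Of all genes in that fit 15.2% were called lower and 17.1% higher. Of the 14 genes, 12 were among the 15. PG9VN replicate 2 is the extreme of that covariate (mean log2 against WT 1.27, and -0.85 to 0.18 in the other libraries). The fit with the covariate and the fit without that library are therefore not independent. Of the 15, Grin1, Grm2 and Dlg3 were not called with the covariate (edgeR adjusted p = 0.438, 0.0578 and 0.543). The 2 called higher were Grik5 (0.31 ± 0.09, edgeR adjusted p = 0.026) and Camk2a (0.32 ± 0.10, adjusted p = 0.0338, against 0.276 to 0.711 under leaving out single libraries). In PG9VN replicate 2 itself, 11 of the 36 genes lay above all other libraries and 11 below, where 28.5% and 27.6% of all genes did. Those most above the mean of the other PG9VN libraries were Grin2a (log2 difference 1.6), Homer1 (1.24) and Camk2a (1.19), and those most below were Grin3a (-1.34), Grm4 (-1.28) and Grin2d (-1.11).

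**Figure D3:**
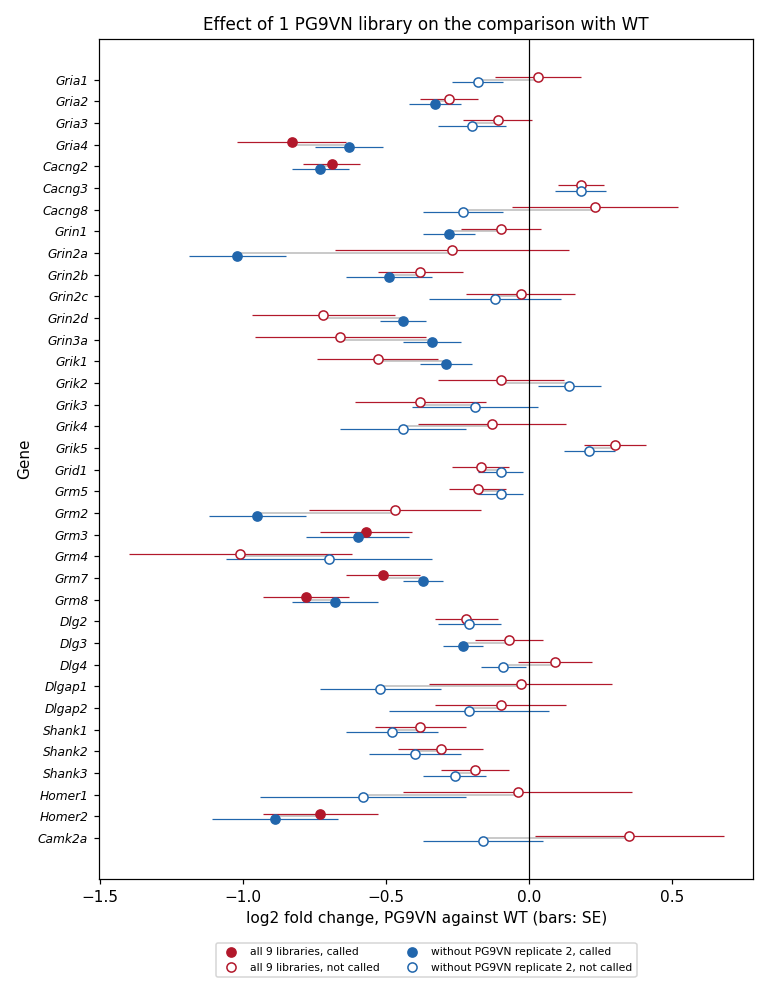
Log2 fold change of each of the 36 genes in PG9VN against WT with all 9 libraries (red) and without PG9VN replicate 2 (blue); bars are SE, and filled points passed an adjusted p of 0.05. The 6 filled red points are also filled in blue, 15 blue points are filled in all, and Grin2a moves furthest, from -0.27 to -1.02.

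The comparison of PG9V with WT shares its WT libraries with that of PG9VN. By edgeR 0 of the 36 genes passed the test in either direction, where 1.62% of all genes were called higher and 0.149% lower. Before adjustment, at a p under 0.05, 3 were lower and 0 higher, beside 902 and 1560 of all 17398 genes. DESeq2 and limma-voom also called 0 of the 36. For 11 genes (30.6%) every PG9V library lay below every WT library, as for 13.2% of all genes: Gria4, Grin2b, Grik1, Grik3, Grm2, Grm3, Grm7, Grm8, Dlg3, Homer1 and Homer2. For 0 genes every PG9V library lay above, as for 16.5% of all genes. The 3 at an unadjusted p under 0.05 were Homer2 (-0.62 ± 0.20), Grin2b (-0.35 ± 0.15, adjusted p = 0.328) and Grm8 (-0.34 ± 0.15, adjusted p = 0.351). The largest value of either sign was that of Homer1 (-0.91 ± 0.40), with WT replicate 2 at 165 CPM. The median of the 36 genes was -0.16, against 0.01 over all genes.

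Between the mutant lines, PG9VN against PG9V, Cacng2 fell by 29.8% (-0.51 ± 0.10, edgeR adjusted p = 0.0274) and no other of the 36 genes passed, where 0.667% of all genes were called lower and 2.72% higher. That call was lost without any 1 of the PG9V libraries, WT replicate 3 or PG9VN replicate 3 (adjusted p up to 0.124). With an unadjusted p under 0.05, 5 genes were lower and 1, Cacng3, was higher (0.23 ± 0.08, edgeR adjusted p = 0.202), beside 1073 and 1730 of all 17398 genes. For Gria4, Cacng2, Grin2d, Grin3a, Grm4 and Grm7 every PG9VN library lay below every PG9V library (16.7% of the 36 genes, and 8.93% of all genes), and for Cacng3 and Homer1 above (12.2% of all genes). Of the former Gria4 was at -0.58 ± 0.19 (adjusted p = 0.155) and Grm7 at -0.34 ± 0.13 (adjusted p = 0.209). Gria4 and Grm7 were the 2 genes (5.56%) whose libraries lay in the order WT, PG9V, PG9VN with no overlap, as did 2.37% of all genes.

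Subunit composition was computed per length within each library, as each gene's share of its class. With 3 libraries against 3 the exact two-sided permutation test cannot go below 0.1, and over 66 such tests the lowest adjusted p was 0.388, so no share passed. Within the TARPs, Cacng2 took 33.8%, 30.4% and 31.7% in WT, 30.2%, 31.7% and 31.8% in PG9V, and 24.7%, 18.3% and 20.7% in PG9VN. Its PG9VN shares lay below all others (exact permutation p = 0.1 against either group). The lowest share came from PG9VN replicate 2, where Cacng8 took 50.4%. Within the AMPA subunits, Gria4 took 11.5% ± 0.627 in WT, 10.6% ± 0.635 in PG9V and 7.51% ± 2.75 in PG9VN, whereas Gria1 took 34.7% ± 2.30, 37.5% ± 1.36 and 40.8% ± 5.07. Within the GluN2 subunits, Grin2c took 26.2% ± 4.12 in WT, 35.6% ± 4.69 in PG9V and 33.4% ± 2.78 in PG9VN, with no overlap between WT and either mutant line. Grin2a took 12% to 31.6% in PG9VN, a range that holds all WT and PG9V values.

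**Figure D4:**
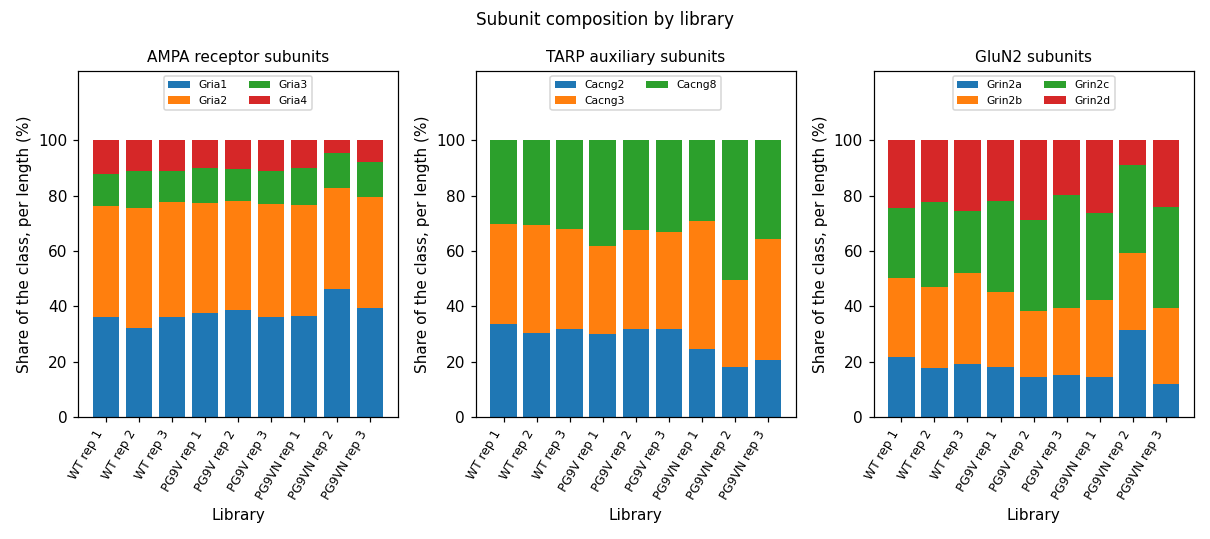
Share of each subunit in its class by library, in percent of the class's length-corrected level, for AMPA subunits, TARPs and GluN2 subunits; bars are single libraries. Cacng2 takes 18.3% to 24.7% of the TARP level in PG9VN and 30.2% to 33.8% in the other libraries, and PG9VN replicate 2 has the largest Cacng8, Gria1 and Grin2a shares.

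Other genes of the glutamate synapse were counted from a separate list of 54, of which 53 were tested. In PG9VN against WT 6 fell and 1 rose, beside the 7.22% and 11.5% of all genes, with a median of -0.11. Plcb4, the phospholipase C that serves group I metabotropic receptors in thalamus, was at 153, 119 and 135 CPM in WT, 93.9, 107 and 109 in PG9V, and 69.6, 41.0 and 46.7 in PG9VN. Its genotypes did not overlap, and it fell both against WT (-1.37 ± 0.19, edgeR adjusted p = 0.00133) and against PG9V (-0.98 ± 0.19, adjusted p = 0.0273).

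The vesicular transporter Slc17a6, which loads glutamate in thalamic neurons and is also in the thalamus list, fell from 165 ± 36.3 to 55.5 ± 41.1 CPM (-1.57 ± 0.46, edgeR adjusted p = 0.0458). The adhesion protein Lrrtm2 (-0.58 ± 0.11) and the AMPA receptor binding protein Grip2 (-0.56 ± 0.11) also fell. Shisa9, another AMPA auxiliary gene, was at -0.62 ± 0.19 and did not pass (adjusted p = 0.0533). The gene that rose was Slc1a3, the glutamate transporter of astrocytes and one of the astrocyte markers, from 569 CPM in WT to 1016 in PG9VN (0.84 ± 0.12, adjusted p = 0.00206). It also rose against PG9V (0.63 ± 0.12, adjusted p = 0.0294). In PG9V against WT 0 of the 53 passed by edgeR. At an unadjusted p under 0.05 there were 2 lower genes and 0 higher ones, beside 902 and 1560 of all 17398 genes.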

How the data were processed

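The authors deposited estimated counts of 105129 transcripts in 9 mice, scaled neither by transcript length nor by library size. Trimmomatic 0.33, FastQC, HISAT2 2.0.5, kallisto 0.43.1 and build mm39 stand in the submitters' processing notes, which as used here do not say what made the counts. Counts were summed per symbol and rounded. Of 177 transcripts with symbols turned into date numbers, 173 were resolved and 4 left out. edgeR 4.0.16 in R 4.3.3 (TMM, filterByExpr, robust quasi-likelihood fit, 9 libraries) tested 17398 genes, with Benjamini-Hochberg adjustment and a threshold of 0.05. CPM use TMM library sizes. TPM and shares use GENCODE M21 transcript lengths (GRCm38) less 200 bases and cover 232 of 235 transcripts of the 36 genes. On simulated data for PG9VN against WT over 17206 genes, 65 genes were changed at each of 3 folds. The test recovered 16.9% of those changed 1.5-fold, 53.8% changed 2-fold and 84.6% changed 4-fold, with 4 false calls among 105. The changed genes were drawn at any level, and the real comparison gave 1256 lower and 2002 higher calls. These rates therefore need not hold for the 36 genes. A floor of 3 counts covers counting error only, and the 36 genes lay far above it. Alternatives included DESeq2 1.42.0 and limma-voom (limma 3.58.1). All 36 genes could be named, and of the further synapse genes those with the smallest p. Arc was named beside Homer1 outside that rule (edgeR unadjusted p = 0.684 in PG9VN against WT). Genes, lists and alternatives were chosen with earlier results of these data known. Some genes of the further synapse list are counted but not reported by name here.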

Additional observations from a re-analysis of the deposited data

How the results depend on the processing

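No paired analysis was possible because the labels give mouse numbers and no replicate numbers shared between genotypes. With all libraries, edgeR called 6 of the 36 genes lower and 0 higher in PG9VN against WT, 0 in PG9V against WT, and 1 lower in PG9VN against PG9V. In PG9VN against WT the lower count was 14 with the cortex marker covariate, beside 15.2% of all genes. It was 3 with only the 2 genotypes compared, beside 608 of 17049 genes. For the most abundant transcript of each gene it was 3, beside 889 of 17191. It was 2 in libraries with Y-linked counts, beside 309 of 17571, and 1 when scaled to the neuron markers, beside 1.06%. The higher count was 2 with that covariate, beside 17.1% of all genes, and 5 with that scaling, beside 37.9%. Leaving out single libraries gave 2 to 15 lower and 0 to 1 higher, beside 533 to 2014 and 1276 to 2365 of all genes. In PG9V against WT only the fit of those 2 genotypes gave a call, 1 lower (Grm2, -0.49). In PG9VN against PG9V the lower count was 4 with the covariate (Gria4, Cacng2, Grin2d and Grm7), 0 with only the 2 genotypes, 0 in libraries with Y-linked counts, 0 when scaled to the neuron markers, and 0 to 1 without single libraries. Dlg3 turned to 0.27 (called higher) in PG9VN against WT when scaled to the neuron markers. The cause of these changes was not tested, other than fewer libraries where libraries were left out. Over the 36 genes, 19 alternatives and 3 comparisons, 1977 log2 fold changes kept their side of the threshold without a called value turning, 41 lost a call and 33 gained one. Counts of the other settings, DESeq2 size factors, upper quartile scaling, no filter, DESeq2 and limma-voom, stayed within 1.5 times.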
